A study of Homo sapiens with 5 samples.

Results

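Nucleoside diphosphate kinase genes were followed in KMH2, an established Hodgkin lymphoma cell line of B-lineage origin, after 16 hours with 30 uM LY294002 (2 arrays) or with its solvent DMSO (3 arrays). Members were the genes whose symbol is NME followed by a digit and which have a probe set (the group of array probes that reads a transcript) carrying 1 gene symbol. This gave 6 genes, NME1, NME3, NME4, NME5, NME6 and NME8, of 7713 genes measured on the array. NME4 was singled out because it was among the genes that passed the threshold in this same comparison, so its difference is described without a test. The other members entered by symbol. LY294002 inhibits phosphoinositide 3-kinase (PI3K), and mTOR and BET bromodomain proteins are among its other known targets. Both groups were kept in the same serum-containing RPMI medium. The design describes 3 arrays per group, and the authors left 1 array out for high background. The study used 1 line, and whether its replicates came from separate cultures is not stated, so errors and p-values describe array-to-array spread that may be technical.

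Nucleoside diphosphate kinases move the terminal phosphate of a nucleoside triphosphate, usually ATP, onto a nucleoside diphosphate through a phosphohistidine in the enzyme. In this way they supply GTP, UTP, CTP and the deoxynucleotides. NME1 to NME4 form the catalytic branch of the family. NME1 (NM23-H1), mainly a cytosolic and nuclear enzyme, is known as a metastasis suppressor gene, and NME4 carries a mitochondrial targeting sequence, binds cardiolipin on the inner membrane and supplies GTP to the fusion GTPase OPA1. NME3 is also catalytic and is found at the mitochondrial outer membrane. NME5 and NME8 are known from the axonemes of cilia and sperm tails, and NME6 is a divergent mitochondrial member.

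NME1 and NME4 were the members with the large differences, so the sequences before their annotated start sites are shown. They are the 250 bases before the start of each gene from RefSeq (build GRCh38.p14, plus strand), NME1 at chr17:51153309-51153558 and NME4 at chr16:396949-397198. The annotated extent of NME4 begins before its window, so some of its transcripts start further upstream. Capitals mark CCAAT (the CCAAT box), GGGCGG (the GC box) and CCGGAAGT (an ETS-type site) on either strand. The third line gives 30 bases after the NME1 start (chr17:51153579-51153608), with CACGTG (the E-box) in capitals.
NME1: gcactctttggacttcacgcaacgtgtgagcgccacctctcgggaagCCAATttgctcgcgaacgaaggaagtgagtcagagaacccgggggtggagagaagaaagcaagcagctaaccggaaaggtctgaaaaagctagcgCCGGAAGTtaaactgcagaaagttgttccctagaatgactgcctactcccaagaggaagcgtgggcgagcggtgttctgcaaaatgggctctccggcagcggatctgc
NME4: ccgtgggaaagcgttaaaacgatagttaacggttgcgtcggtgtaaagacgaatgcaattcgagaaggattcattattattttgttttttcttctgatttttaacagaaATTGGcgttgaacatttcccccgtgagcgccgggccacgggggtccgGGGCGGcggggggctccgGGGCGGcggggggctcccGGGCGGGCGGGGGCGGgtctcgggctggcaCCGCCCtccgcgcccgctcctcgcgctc
NME1 after its start: caagtgctgcgaacCACGTGggtcccgggc

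These motifs were chosen with the sequences in view, and a match is a description, not a site in use. Matches were counted in windows of 300 bases that also hold the first 50 transcribed bases, with overlapping matches of a motif counted. The NME1 window holds 1 E-box, first base at 35 after the start, and CACGTG is present in 7.26% of 35116 RefSeq windows of this length. It also holds 1 ETS-type site (4.14% of windows) and 1 CCAAT box (34.6%), and 0 GC boxes. The NME4 window holds 7 GC boxes, 6 of them in the stretch shown, and 45.0% of windows hold at least 1. It shares with NME1 only the CCAAT box, of which it holds 1, here on the other strand as ATTGG, and CACGTG and CCGGAAGT are not in this window. The upstream stretch of NME4 is 62% G and C, and that of NME1 is 55.2%. Of the other members, the NME3 window holds 5 GC boxes, the NME6 window 1 GC box and the NME5 window 1 CCAAT box, and the NME8 window 0 of these motifs.

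The 5 arrays had medians of 6.26 to 6.29 on the log2 scale, and LY294002 replicate 1 had the highest upper quartile, 7.69 against 7.59 to 7.62. Pearson's r over probe sets was 0.996 to 0.998 within groups and 0.989 to 0.992 between them. As a measure of RNA quality, the 3' control probe set of ACTB minus its 5' one lay between -0.96 and -0.71 with DMSO and at -0.72 and -0.86 with LY294002. Of the markers listed for Hodgkin cells, 8 of 8 were measured. The groups did not overlap for 7 of them (29.6% of all genes). Of these, 3 were higher with LY294002 (IRF4, CD70 and TRAF1) and 4 lower (TNFRSF8, CCL17, CCL22 and FSCN1). The gap between the nearest arrays was only 0.04 for CCL17, 0.03 for CCL22 and 0 after rounding for FSCN1. IRF4, a transcription factor of activated B cells, was the 1 of 8 past the threshold of 0.05, as 0.908% of all genes were (0.66 ± 0.07, limma, adjusted p = 0.0473), while TNFRSF8, the gene of CD30, was at -0.68 ± 0.17 (limma, adjusted p = 0.157). The 4 B-lineage markers measured had a summed log2 level of 26.35 to 26.66 with DMSO and 25.38 to 25.47 with LY294002. Among them MS4A1, the gene of CD20, stood at 10.57, 10.43 and 10.24 with DMSO and at 9.59 and 9.25 with LY294002 (-1.0 ± 0.15, limma, adjusted p = 0.073), read by a probe set whose name marks possible binding to other transcripts. POU2AF1 (4.69 to 4.88), CD79A (6.01 to 6.21) and CD79B (5.17 to 5.19) were below the array medians on every array, and POU2AF1 was at -0.14 ± 0.04 (limma, adjusted p = 0.19). The 4 monocyte markers measured lay between 4.42 and 5.91, with a summed log2 level of 20.45 to 20.58 with DMSO and 20.24 to 20.64 with LY294002. The 4 T cell markers measured lay between 6.42 and 8.97, above the array medians on every array. They summed to 29.66 to 29.86 with DMSO and to 28.92 and 29.5 with LY294002. All 4 differences were below 0 (limma, smallest adjusted p = 0.303). The 3 erythroid and platelet markers measured lay between 4.29 and 8.13. The part of these shifts in the results was not tested. Values come from whole cultures, so fewer cells with a transcript and less of it per cell cannot be told apart.

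NME4, a mitochondrial kinase, was lower on both LY294002 arrays. Its log2 level was 9.80, 9.93 and 10.02 on the DMSO arrays and 9.13 and 9.0 on the LY294002 arrays. The groups did not overlap, and the gap between their nearest arrays was 0.67, against an SD of 0.11 among the DMSO arrays (n = 3) and 0.09 among the LY294002 arrays (n = 2). The fitted difference was -0.85 ± 0.08 (SE of the limma fit, a linear model with moderated variances), with a 95% interval of -1.07 to -0.63, so the LY294002 level was 55.3% of the DMSO level. Ordered by this difference from the lowest, NME4 had rank 13 of 7713 genes. This difference is what chose the gene, and nothing is supported with it. The probe set of NME4 is of the kind whose name marks it as able to bind more than 1 transcript, so its value is uncertain as that of a single gene.

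NME1, a mainly cytosolic and nuclear kinase, was lower by nearly as much. Its log2 level was 9.93, 10.20 and 10.29 on the DMSO arrays and 9.40 and 9.35 on the LY294002 arrays. Both LY294002 arrays lay below all DMSO arrays, with a gap of 0.53, although DMSO replicate 1 stood lower than the other DMSO arrays and the DMSO spread was wider (SD 0.19, n = 3) than that of NME4. The fitted difference was -0.77 ± 0.12 (95% interval -1.08 to -0.45), a level 58.8% of that with DMSO, and rank 23 of 7713. It did not pass the threshold of 0.05 over all probe sets (limma, adjusted p = 0.0762). The adjusted p passed the threshold with cyclic loess (0.0283), with quantile normalization (0.0242), when the dimmest 40% of probe sets were left out (0.0389) and when those with identical values within a group were left out (0.00708), and over all 15 other settings it ran from 0.00708 to 0.365.

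**Figure D1:**
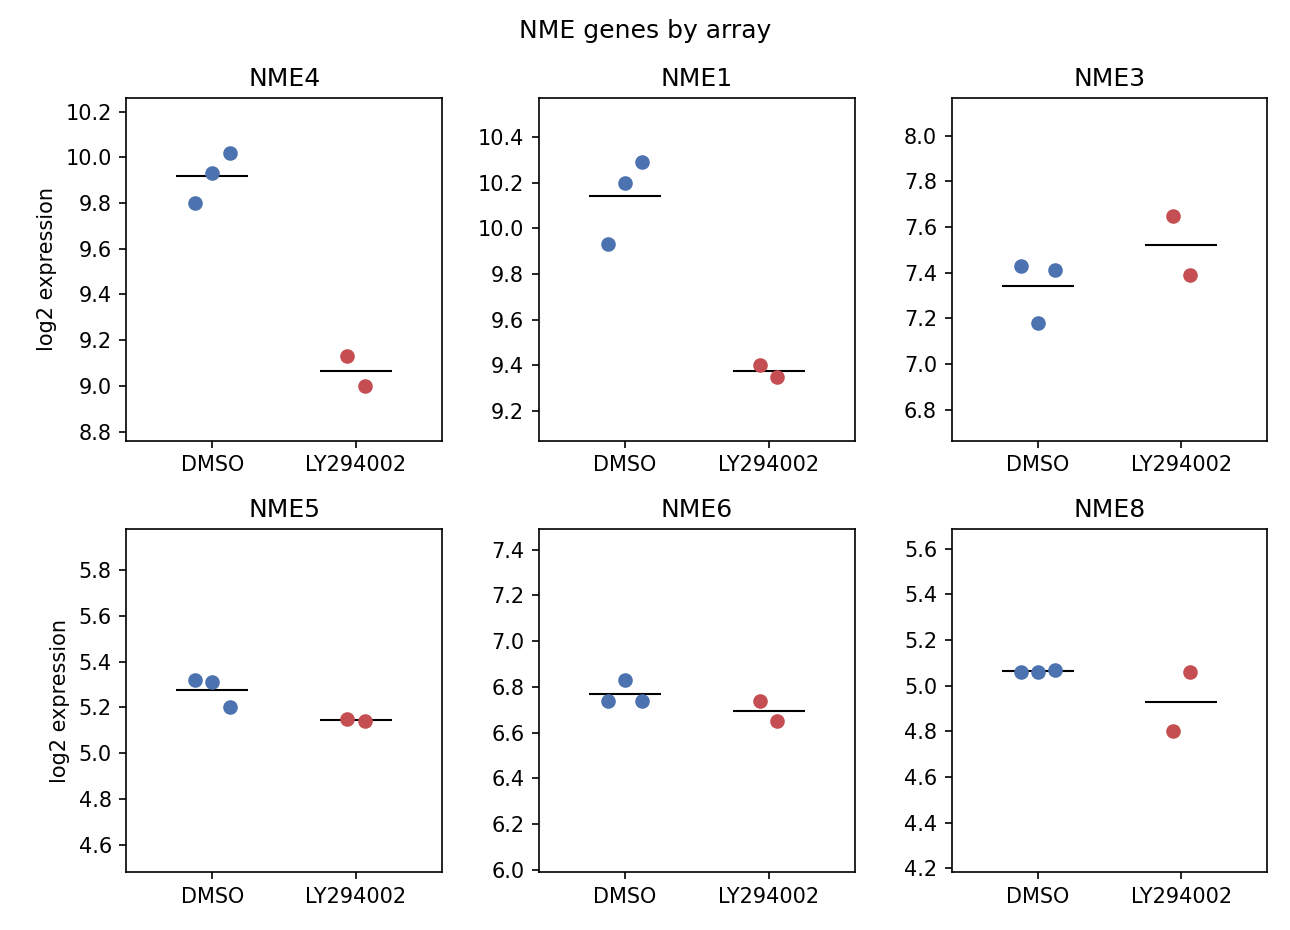
Log2 expression (vertical axis, a span of equal size in each panel) of the 6 NME genes on the 3 DMSO arrays (blue) and the 2 LY294002 arrays (red), with points for arrays and horizontal lines for group means. NME4 and NME1 are lower on both LY294002 arrays by more than the spread within either group, while the group means of the other 4 genes lie between 0.18 above and 0.13 below DMSO.

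The transcripts of NME4 and NME1 moved side by side. NME3 and NME6, also found at mitochondria, were at 0.18 ± 0.12 and -0.07 ± 0.05. Whether the compartments of the proteins have a part in this was not tested. Relative to its own DMSO mean, NME4 stood at -0.79 and -0.92 and NME1 at -0.74 and -0.79 on LY294002 replicates 1 and 2. On DMSO replicates 1, 2 and 3 the deviations were -0.12, 0.01 and 0.10 for NME4 and -0.21, 0.06 and 0.15 for NME1, so DMSO replicate 1 was the lowest control array for both genes. The NME4 deviation minus the NME1 deviation was 0.09, -0.05 and -0.04 on the DMSO arrays and -0.05 and -0.13 on the LY294002 arrays. The LY294002 arrays thus reach only slightly beyond the DMSO range of this difference, on 1 of the 2 arrays. The fitted differences of the genes were -0.09 apart, and this quantity lay between -0.13 and -0.04 under the 15 other settings tried. Several of these settings refit the same values and could not change it, so this range is no measure of its stability. Levels of the 2 probe sets were not set against each other, because probe sets differ in how strongly they bind.

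NME3, the other catalytic member measured, had a difference of the opposite sign. Its log2 level was 7.43, 7.18 and 7.41 with DMSO and 7.65 and 7.39 with LY294002. The groups overlapped, since LY294002 replicate 2 lay within the DMSO range. The fitted difference was 0.18 ± 0.12, with an interval of -0.13 to 0.49 (limma, adjusted p = 0.458). Like that of NME4, the probe set of NME3 is of the kind that may bind more than 1 transcript.

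The array also has 1 probe set that carries 2 symbols, NME2 and the read-through transcript NME1-NME2, and so stands for no single gene. NME2 is the gene next to NME1 and encodes its closest relative in the family. The log2 level of this probe set was 10.92, 11.08 and 11.09 with DMSO and 10.85 and 10.92 with LY294002. LY294002 replicate 2 did not lie below the lowest DMSO array. The fitted difference was -0.14 ± 0.07 (limma, adjusted p = 0.384), smaller than that of NME1, and a test between the probe sets was not run.

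The divergent members had small differences, all 3 below 0. NME5, of the ciliary axoneme, stood at 5.32, 5.31 and 5.20 with DMSO and at 5.15 and 5.14 with LY294002. The groups did not overlap, but the gap between them was 0.05, and the difference of -0.13 ± 0.05 did not pass (limma, adjusted p = 0.276). NME6 stood at 6.74, 6.83 and 6.74 with DMSO and at 6.74 and 6.65 with LY294002, a difference of -0.07 ± 0.05 (limma, adjusted p = 0.462). For NME8, also of the axoneme, the levels were 5.06, 5.06 and 5.07 with DMSO and 4.80 and 5.06 with LY294002, so that LY294002 replicate 1 alone was low. The NME8 difference was -0.13 ± 0.08 (limma, adjusted p = 0.45). NME6 and NME8 each hold the same value to the last digit on 3 of the 5 arrays, in both groups, as 4360 of 7713 genes do on at least 2 arrays. By their means over all arrays, 24.4% of probe sets were dimmer than that of NME5 and 19% dimmer than that of NME8. A fall is hard to see on dim probe sets, and the table holds no detection calls. With LY294002 replicate 1 left out the NME8 difference was 0, and with replicate 2 left out it was -0.26.

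Over the family, 5 of 6 log2 differences were below 0, as were 4277 of all 7713 genes. The median was -0.13 against -0.01 over all genes. In 3 of 6 (NME1, NME4 and NME5) both LY294002 arrays lay below all DMSO arrays, as was so for 13.4% of all genes, and in 0 of 6 they lay above, against 16.2% (29.6% in either direction). NME4 was the 1 of 6 past the threshold, where 0.908% of all genes passed (0.298% as lower and 0.609% as higher). Because NME4 was chosen on this contrast, nothing is read from these counts.

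**Figure D2:**
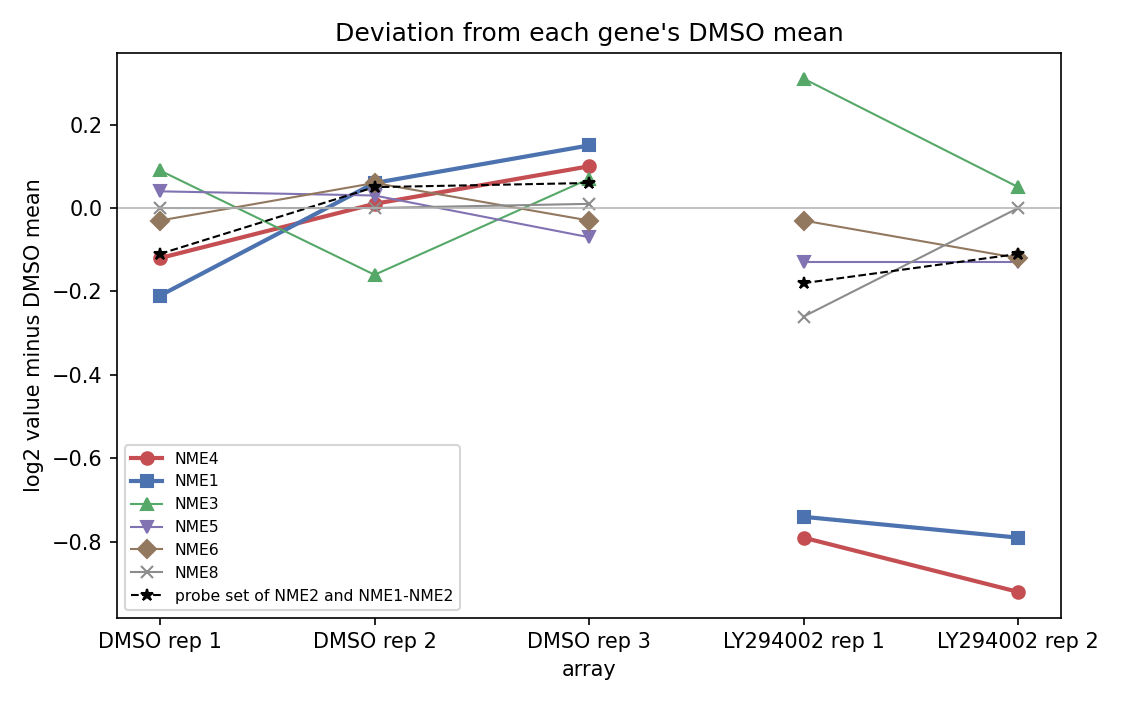
Log2 value minus the DMSO mean of the same gene (vertical axis) on each of the 5 arrays (horizontal axis), for the 6 NME genes and the probe set with the symbols NME2 and NME1-NME2 (dashed). NME4 and NME1 lie together at -0.74 to -0.92 on the LY294002 arrays, apart from the other lines, which stay between -0.26 and 0.31.

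Genes with a like pattern were ranked by the root mean square difference, in log2 units over the 5 arrays, between their deviations and those of the kinase gene. For NME4 the nearest of 7712 genes were CORO1A (0.026), FABP6 (0.055), NME1 (0.08), SPIB (0.094) and DDB2 (0.096). For NME1 they were FABP6 (0.027), GNAS (0.049), DDB2 (0.066), CORO1A (0.078) and NME4 (0.08). Each kinase gene is among the 5 nearest to the other, while NME3 had rank 6656 from NME4 and rank 6703 from NME1. The measure mainly picks genes with the same treatment difference, on which NME4 was chosen, and the 5 arrays are shared by all of them. These ranks restate the differences given above, and nothing is supported with them. CORO1A, an actin-binding protein of leukocytes, stood at 8.0, 8.09 and 8.22 with DMSO and at 7.29 and 7.23 with LY294002. FABP6, a bile acid-binding protein, stood at 8.25, 8.46 and 8.58 and at 7.67 and 7.60, and both genes show the lowest DMSO value on replicate 1, as NME1 and NME4 do. SPIB, an Ets factor of B cells, was lower by more (-0.98 ± 0.05). DDB2, a sensor of ultraviolet DNA damage, was at -0.78 ± 0.13. GNAS, the stimulatory G protein subunit, was at -0.73 ± 0.14 on its brighter probe set and at -0.11 ± 0.10 on its other one, so its place rests on 1 of 2 probe sets.

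The enzymes that work before and beside these kinases were described through 6 lists of nucleotide and mitochondrial genes, 90 distinct genes of which 52 were measured. With limma 0 of the 52 passed the threshold, and 15 (28.8%) had an unadjusted p under 0.05, against 17.1% of all genes. Both LY294002 arrays lay below all DMSO arrays for 18 (34.6%, against 13.4%) and above them for 8 (15.4%, against 16.2%). Counts of list members below 0 are to be read beside the 4277 of all 7713 genes below 0. No list as a whole was tested.

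The first list holds nucleoside kinases, which make monophosphates, nucleoside monophosphate kinases, which make the diphosphates that NME enzymes use, and the CTP synthases CTPS1 and CTPS2. It had a median of -0.06 over 14 measured genes of 23 listed, with 9 below 0 and 5 above. AK4, an adenylate kinase of the mitochondrial matrix, had the largest difference. Like that of NME4, its probe set is of the kind that may bind more than 1 transcript. Among others, IRF4 above and RRM1, VDAC1, SSBP1, DNM2 and APEX1 below are read by such probe sets too. The log2 level of AK4 was 9.05, 9.17 and 8.92 with DMSO and 8.44 and 8.36 with LY294002. These do not overlap, and the difference was -0.64 ± 0.08 (limma, adjusted p = 0.059). That p was under the threshold under 5 of the 15 other settings, from 0.00609 to 0.0442, and at most 0.348 under the others. The deoxycytidine kinase gene DCK was at 0.42 ± 0.19 (limma, adjusted p = 0.374), carried by LY294002 replicate 1 at 6.99 against 6.39 on replicate 2. With LY294002 replicate 1 left out DCK was at 0.12, and with replicate 2 left out at 0.72.

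Enzymes that supply and clean deoxynucleotides had a median of -0.09 over 12 of 17 genes, 8 of them below 0. DUT, which removes dUTP, stood at 7.68, 8.09 and 7.95 with DMSO and at 7.43 and 7.17 with LY294002. RRM1, the large subunit of ribonucleotide reductase, stood at 8.80, 9.18 and 9.02 and at 8.53 and 8.27. In both genes the groups did not overlap, and the differences of -0.61 ± 0.15 and -0.60 ± 0.14 did not pass (limma, adjusted p = 0.158 and 0.145).

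For the intermembrane space and cardiolipin list the median was 0.01 over 14 of 27 genes, 7 below 0 and 7 above. OPA1 and cardiolipin synthase (CRLS1) were not analysed here. VDAC1, the channel of the outer membrane, was at -0.32 ± 0.09 (limma, adjusted p = 0.199), and CYCS, cytochrome c, at -0.27 ± 0.05 (limma, adjusted p = 0.106). The matrix nucleotide and mitochondrial DNA list had a median of 0 over 12 of 18 genes, 6 below 0 and 6 above. Beside AK4 it holds SSBP1, the mitochondrial single-strand DNA-binding protein, at -0.24 ± 0.06 (limma, adjusted p = 0.152).

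Dynamin family GTPases, some of which draw GTP from nucleoside diphosphate kinases, had a median of 0.28 over 5 of 9 genes. DNM2, the dynamin of endocytosis, stood at 7.19, 7.25 and 7.33 with DMSO and at 7.86 and 7.61 with LY294002, a difference of 0.48 ± 0.09 (limma, adjusted p = 0.101). MX2, an interferon-induced member, was at -0.59 ± 0.11 (limma, adjusted p = 0.0949). Of the NME1 partner proteins 3 of 7 were measured, with a median of -0.13. The DNA repair nuclease APEX1 was at -0.16 ± 0.06 and the phosphatase inhibitor ANP32A at -0.13 ± 0.10 (limma, adjusted p = 0.328 and 0.514), and ANP32A turned to 0.03 without LY294002 replicate 2.

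**Figure D3:**
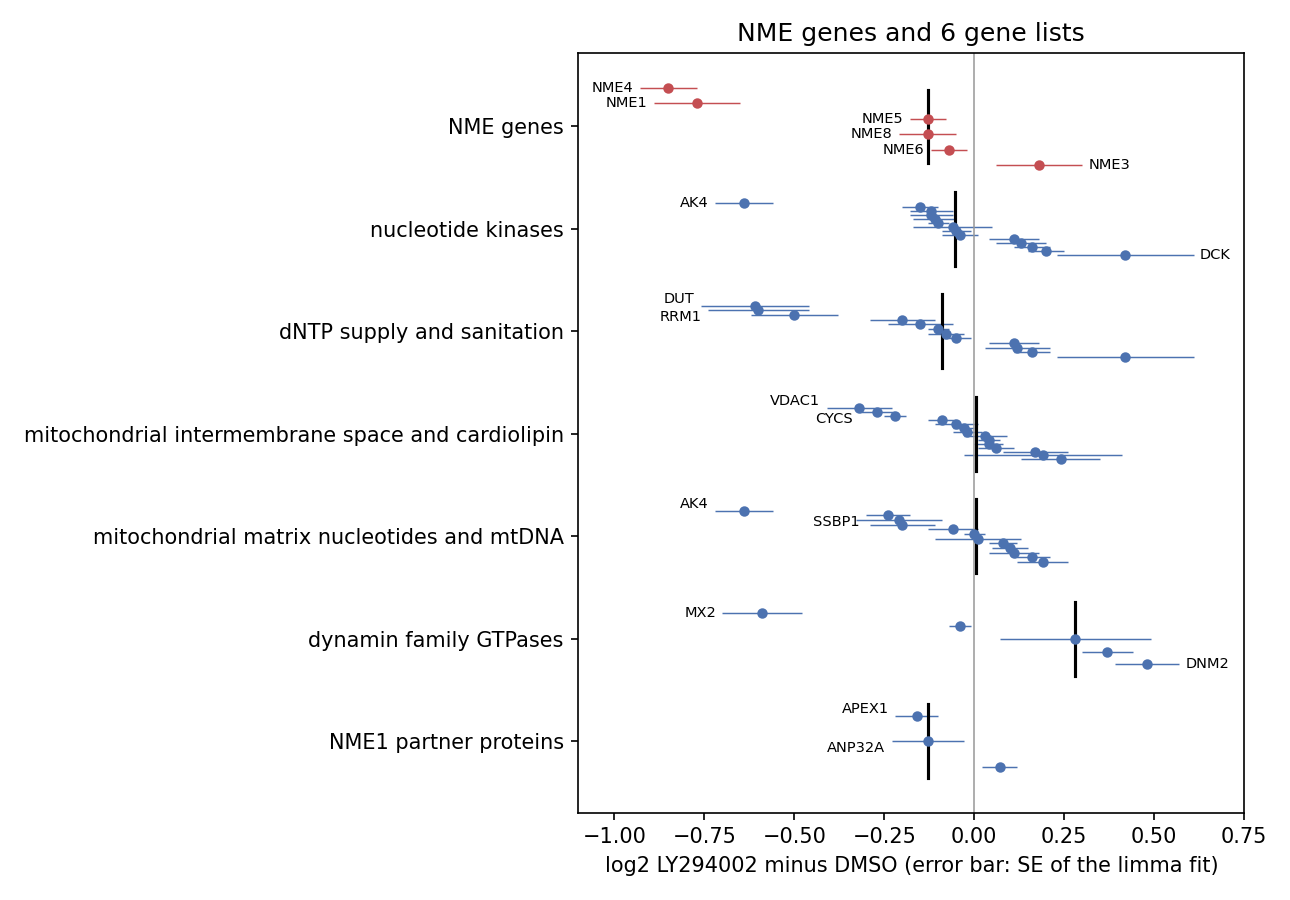
Log2 LY294002 minus DMSO (horizontal axis, bars give the SE of the limma fit) for the NME genes (red) and the measured members of 6 lists (blue), with a black line at each median. AK4 at -0.64 has the lowest value in the 6 lists, and NME4 at -0.85 is drawn as the gene chosen on this comparison.

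Of the 8 measured genes nearest to NME4 and NME1 on their chromosomes, 0 passed the threshold with limma (3 at an unadjusted p under 0.05), where 0.908% and 17.1% of all genes did. Between them and the kinase gene lie 0 (DECR2) to 28 (TOM1L1) annotated genes, so not all are close. NME2, next to NME1, is not among them because its probe set carries 2 symbols. All 3 of those were higher with LY294002, as were 819 of the 1320 genes at that p over the array. Around NME4, by order in RefSeq (GRCh38.p14), DECR2 is the next annotated gene and stood at 7.13, 7.24 and 7.08 with DMSO and at 7.33 and 7.47 with LY294002. That is a difference of 0.24 ± 0.07, opposite in sign to NME4 (limma, adjusted p = 0.198). PGAP6 was at 0.23 ± 0.09, CAPN15 at 0.13 ± 0.08 and MRPL28 at -0.08 ± 0.07 (limma, adjusted p = 0.303, 0.443 and 0.579). Around NME1, SPAG9, a scaffold of JNK signalling, stood at 7.15, 7.21 and 7.07 with DMSO and at 7.89 and 7.49 with LY294002, a difference of 0.54 ± 0.13 (limma, adjusted p = 0.154). TOB1, an antiproliferative protein, was at 0.47 ± 0.14, CA10 at -0.04 ± 0.07 and TOM1L1 at -0.10 ± 0.06 (limma, adjusted p = 0.217, 0.786 and 0.458). The CA10 difference was 0.03 without DMSO replicate 3.

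How firmly NME4 and NME1 can be placed depends on the small number of arrays. Under all 15 other settings both differences stayed below 0, between -0.92 and -0.79 for NME4 and between -0.87 and -0.69 for NME1. That the signs held says little. NME4 was chosen for differing on these arrays. For both genes the groups did not overlap, so leaving 1 array out could not turn the sign. Several other settings refit the same values of these genes and could change only the error or the adjusted p. Without DMSO replicate 1, which was low for both genes, the differences were -0.91 ± 0.07 for NME4 and -0.87 ± 0.05 for NME1. With any 1 array left out, 0 of 6 members and 0 to 4 of 7713 genes passed the threshold.

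**Figure D4:**
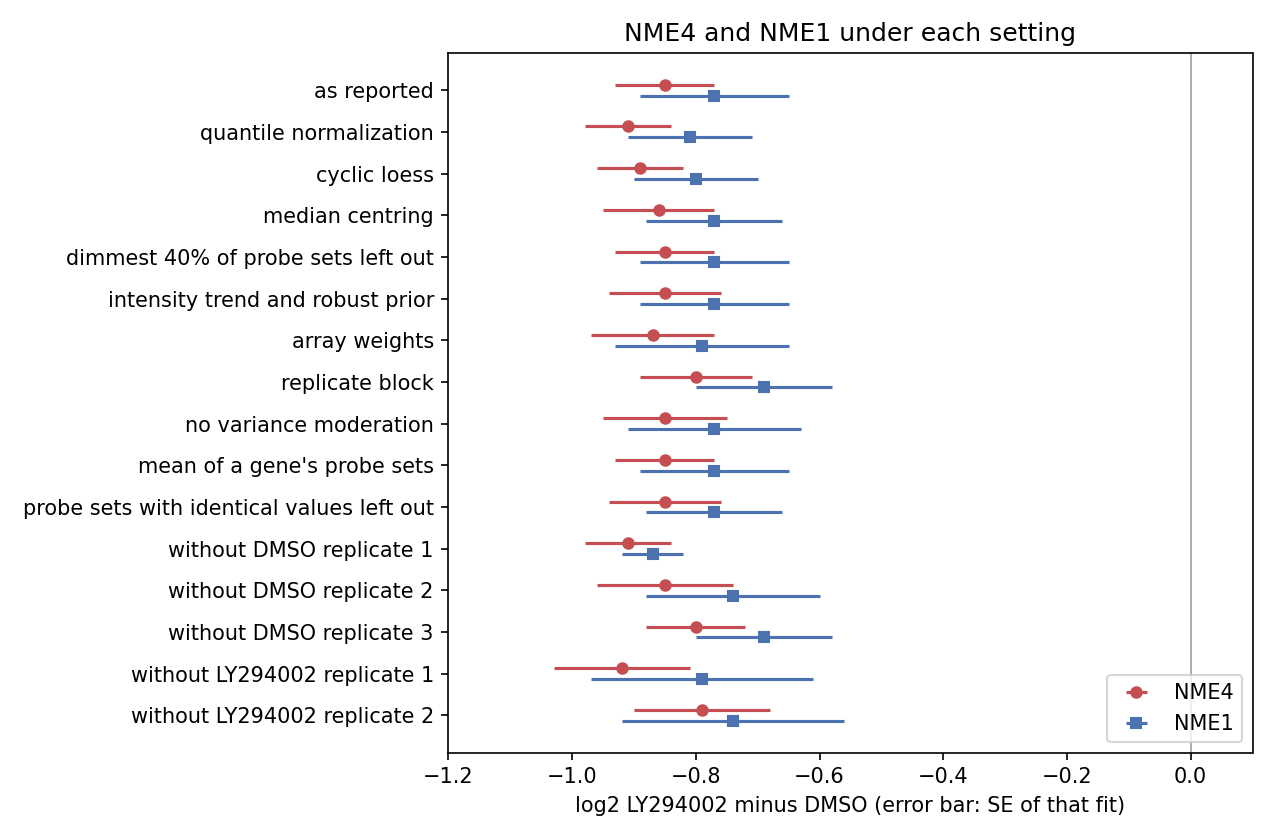
Log2 LY294002 minus DMSO (horizontal axis, bars give the SE of each fit) of NME4 (circles) and NME1 (squares) as reported and under 15 other settings (vertical axis). All points lie between -0.92 and -0.69. NME4, chosen on this difference, is the lower of both genes in each setting, but nothing is read from this order. The 2 genes are -0.09 apart as reported, against an SD of 0.08 for this quantity among the DMSO arrays, and several settings refit the same values.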

How the data were processed

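The deposited table holds log2 values of 8793 probe sets from 5 Affymetrix arrays, made from total RNA as biotinylated cRNA, per the labels. Per the submitters' processing notes, the authors obtained the log2 values with affy, an R package. Its version and its background and summary steps were not given in the sources used here. They were used as deposited. Without 47 control probe sets, 8746 were fitted. The platform annotation gives 7840 probe sets 1 gene symbol, 388 several and 518 none, and 7838 of the 7840 were found in RefSeq. A gene was represented by its brightest probe set (7713 genes, 122 with more than 1 probe set); each NME member has 1.

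LY294002 was compared with DMSO with limma 3.58.1 in R 4.3.3 (lmFit, eBayes, group as the only term, 3 residual degrees of freedom), with Benjamini-Hochberg adjustment over 8746 probe sets at 0.05. The code of the fit was run on simulated data with independent normal noise. Such data lack the identical values seen here, so the run does not check the adjusted p-values of these arrays. Members, lists and settings were chosen with earlier results of these data known. Named genes are the members, up to 4 list members past the threshold or otherwise the 2 with the largest difference, the 5 genes nearest in profile, and the 2 nearest measured neighbours on each side. Promoter sequences came from RefSeq. Arrays limit the precision by their number. Plots used matplotlib 3.10.9 (Python 3.11.15).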

Additional observations from a re-analysis of the deposited data

How the results depend on the processing

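Under 15 other settings, NME4 and NME1 kept their direction, which most of these settings could not change. NME1 passed the threshold with cyclic loess (-0.80), with quantile normalization (-0.81), without the dimmest 40% of probe sets (-0.77) and without probe sets with identical values (-0.77). The number of NME members past it, 1 as reported, was 2 under these same 4 settings, and 0 with array weights, with no variance moderation and with the replicate block. It was 0 to 0 with any 1 array left out. Genes past the threshold, 70 as reported, numbered 299 after quantile normalization, 264 after cyclic loess, 147 after median centring, 203 without dim probe sets, 510 without probe sets with identical values, 17 with array weights, 1 with no variance moderation, and 0 to 4 with any 1 array left out. Pathway genes past it, 0 as reported, numbered 7 after quantile normalization, 4 after cyclic loess, 1 after median centring, 1 without dim probe sets and 7 without identical values. The cause of these changes was not tested. Directions turned for ANP32A (-0.29 to 0.03 with 1 array left out, the highest without LY294002 replicate 2) and for CA10 (-0.07 to 0.03, the highest without DMSO replicate 3, and 0.03 with the replicate block). The replicate numbers 1 and 2 are shared by both groups, but same-numbered arrays did not deviate together (correlations over probe sets of 0 and -0.21). The deviations of the 2 LY294002 arrays from their own mean mirror each other, so these are not 2 separate checks. With the replicate block NME4 was at -0.80 and NME1 at -0.69, the same as without DMSO replicate 3. That array has no same-numbered LY294002 array, so it does not inform the block estimate. The block also leaves fewer residual degrees of freedom, and 0 genes passed, with 820 at an unadjusted p under 0.05. NME5, NME6 and NME8 stayed short of the threshold wherever they were fitted, but NME8 ran from -0.26 to 0 with 1 array left out and was at 0 without LY294002 replicate 1. NME6 and NME8 were left out with the identical values, and NME5 and NME8 with the dim probe sets. Fits with 1 LY294002 array assume that it varies like the DMSO arrays.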
